A study of Rattus norvegicus with 56 samples.

Results

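Elf3, Elf5, Gata2, Gata3, Tfap2a, Tfap2b, Tfcp2l1, Grhl2 and Pax8 are transcription factors of the renal tubule that have been tied to expression of the vasopressin-regulated water channel gene Aqp2. They were taken by name, and all 9 were found by symbol among the 32883 gene identifiers of the 30 min expression table and carried to the 3 h table by Ensembl identifier. Male Sprague-Dawley rats had the left ureter tied with silk close to the renal pelvis (unilateral ureteral obstruction, UUO) or the same operation without the ligature (sham), and tubules were dissected from the kidney at 30 min or 3 h. Cortical collecting duct (CCD), which holds the Aqp2-expressing principal cells together with acid-base-transporting intercalated cells, and cortical thick ascending limb (cTAL) were sequenced as bulk RNA, so that each time had 4 numbered replicates of UUO CCD, sham CCD, UUO cTAL and sham cTAL. Each CCD number had 2 libraries and each cTAL number 1, which gave 48 libraries, 24 per table. Levels are in TPM, a length-adjusted share of all transcripts of a library, and a CCD level is the mean of the 2 libraries of its number. The tables of the 2 times were made separately, and no level was compared between them.

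Vasopressin acts through its receptor and cyclic AMP in principal cells, both to move the aquaporin-2 protein to the apical membrane and to raise transcription of its gene. Besides the cyclic AMP-responsive factors, Aqp2 depends on factors that set epithelial and segment identity. In mouse, Gata2 and Gata3 (zinc finger factors that bind GATA letters), Elf3 and Elf5 (epithelial members of the ETS family, which bind a GGAA core) and Pax8 (a paired box factor of the nephron and duct lineage) have been linked to Aqp2 or to the duct, Tfcp2l1 (a CP2 family factor) to the balance of principal and intercalated cells, and Grhl2 (a grainyhead factor) to the tightness of the duct epithelium. Tfap2a and Tfap2b encode AP-2 factors of the distal nephron and collecting duct.

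The start-site windows of Aqp2, to which all the factors are tied, and of Elf3, the member that rose in both segments, show which letters of these families are present. They were taken from RefSeq on build GRCr8, run from 250 bases before to 50 bases after the annotated start, and are printed in the direction of transcription, with the ETS core (GGAA, or TTCC when read on the other strand) and the GATA core (GATA, or TATC) in capitals. The Aqp2 window lies at chr7:132590036-132590335 on the plus strand and the Elf3 window at chr13:49247037-49247336 on the minus strand.
Aqp2: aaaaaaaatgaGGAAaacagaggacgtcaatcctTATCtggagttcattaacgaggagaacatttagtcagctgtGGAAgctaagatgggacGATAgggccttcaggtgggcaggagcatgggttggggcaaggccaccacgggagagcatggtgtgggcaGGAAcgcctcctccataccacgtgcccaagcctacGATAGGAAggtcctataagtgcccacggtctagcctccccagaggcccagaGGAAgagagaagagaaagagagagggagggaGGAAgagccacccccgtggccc
Elf3: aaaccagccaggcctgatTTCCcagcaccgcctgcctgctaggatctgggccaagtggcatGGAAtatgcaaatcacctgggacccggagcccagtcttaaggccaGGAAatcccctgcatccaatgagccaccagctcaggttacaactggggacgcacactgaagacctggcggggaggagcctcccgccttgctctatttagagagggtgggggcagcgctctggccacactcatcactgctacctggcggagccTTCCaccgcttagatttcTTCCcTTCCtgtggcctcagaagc
The Aqp2 window held 6 ETS cores, all on its plus strand, and 3 GATA cores, 1 of which formed part of the longer letters AGATAA. An ETS core was present in 95.8% of the 33469 windows of this length and 6 or more in 16.4%, while a GATA core was present in 60.5%, 3 or more in 13.7%, and AGATAA on either strand in 11.6%. The cyclic AMP response letters TGACG occurred once in the Aqp2 window, on the minus strand, and in 21.2% of all windows. The Elf3 window held 6 ETS cores, 2 on the plus and 4 on the minus strand, and no GATA core. An AP-2 match (GCCNNNGGC, in 15.1% of windows) was in neither, and the paired CP2 and grainyhead letters, CCNG and CCNG again after 6 bases (27.0% of windows), occurred once, in Elf3 on the minus strand. Apart from the GATA core inside AGATAA, none of these matches in the 2 windows overlapped a match to another motif. Of the 9 factors, 5 had a window in the sequence table (Elf3, Gata2, Gata3, Tfcp2l1 and Pax8).

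The dissected segments carried their markers. The summed level of 6 principal cell genes ranged from 5404 to 9862 TPM in UUO CCD and from 15593 to 18231 TPM in sham CCD at 3 h, against 48.0 to 152 TPM in UUO cTAL and 85.4 to 609 TPM in sham cTAL. The highest sham cTAL value came from replicate 1, which had 361 TPM of Aqp2, against 0.34 to 4.34 TPM in the other 3. The thick limb gene Umod passed 5000 TPM in 3 CCD libraries at 3 h, 1 of UUO number 4 (18235 TPM) and 1 each of sham numbers 1 (6941 TPM) and 3 (7957 TPM). At 30 min, the second CCD library of UUO number 2 reached 1 TPM for the smallest number of genes, 8744 against up to 11916 in that table.

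In sham rats, most of the factors were collecting duct genes, Gata2 and Gata3 by far the most so, while Tfap2b was higher in thick limb and Elf3 overlapped between the segments. Differences are of log2(TPM + 1), CCD minus cTAL within each numbered sham rat, tested with limma and Benjamini-Hochberg adjustment over all genes that reached 1 TPM in at least 4 replicates. A gene with an adjusted p under 0.05 was called. At 30 min 6 members were called higher in CCD and 1 lower among the 8 tested, where 54.9% of all 11648 genes tested were called in either direction. At 3 h 4 were called higher and 1 lower among 7 tested, against 38.2% of 10521 genes. The 2 sham groups did not overlap for 7 of the 8 members tested at 30 min and for 5 of the 7 at 3 h, against 46.5% and 38.7% of all genes tested at those times. The median difference of the members tested was 1.34 at 30 min and 1.46 at 3 h, beside 0.30 for the median gene at either time. Tfap2a was under the filter at both times and Elf5 at 3 h. Elf5, Gata2 and Gata3 passed it through their CCD values only, so a difference for them was built into passing. They are among the 6 called higher at 30 min, and Gata2 and Gata3 are among the 4 at 3 h.

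Gata3, which marks the collecting duct from its first outgrowth in the embryo, had 76.9, 128, 145 and 117 TPM in the 4 CCD replicates at 30 min, against 0.06, 0.37, 0.78 and 0.02 TPM in cTAL. At 3 h it had 61.0, 76.0, 62.9 and 76.2 TPM in CCD and 2.96, 1.36, 0.24 and 0.09 TPM in cTAL. Every CCD value lay far above every cTAL value, and the highest cTAL value was in the replicate with 361 TPM of Aqp2. The log2 difference was 6.49 (SE 0.16, limma adjusted p = 5.53e-07) at 30 min and 5.21 (SE 0.36, adjusted p = 0.000195) at 3 h. Gata3 passed the filter through CCD alone, so a difference was built into passing.

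Gata2, its zinc finger relative, had 27.4, 59.5, 76.4 and 89.7 TPM in sham CCD at 30 min, against 0.50, 0.13, 0.75 and 0.49 TPM in sham cTAL. At 3 h the CCD values were 40.6, 58.1, 37.2 and 43.5 TPM and the cTAL values 1.28, 0.32, 0.37 and 0.35 TPM, the first again from the replicate rich in Aqp2. The groups were wide apart, with log2 differences of 5.34 (SE 0.28, adjusted p = 1.35e-05) and 4.87 (SE 0.26, adjusted p = 8.71e-05). Here too a difference was built into passing the filter. Because these are bulk tubules, fewer cells of a type and less RNA per cell cannot be told apart for these or the values that follow.

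Elf3 was the most abundant member in sham cTAL at both times and in sham CCD at 30 min. At 30 min the sham CCD replicates had 138, 172, 202 and 325 TPM, and the sham cTAL replicates 175, 115, 142 and 145 TPM. At 3 h the sham CCD replicates had 106, 87.1, 112 and 91.7 TPM, and the sham cTAL replicates 69.0, 81.4, 98.1 and 105 TPM. The segments overlapped at both times, and the log2 differences of 0.47 (SE 0.21, adjusted p = 0.102) and 0.15 (SE 0.14, adjusted p = 0.413) were not called. Without sham replicate 1 the 30 min difference was 0.74 and was called (adjusted p = 0.0120), and at 3 h it was -0.17 and -0.12 under the 2 rescalings of the libraries. Elf5, its relative, was low in CCD and near 0 in cTAL. It had 1.295 to 2.18 TPM in sham CCD at 30 min and was listed at 0 in 3 of 4 cTAL replicates and at 0.15 TPM in the other, and at 3 h it had 0.75 to 2.22 TPM in CCD and was listed at 0 in all 4 of cTAL.

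Tfap2b ran the other way. It had 4.39, 7.02, 4.63 and 8.30 TPM in sham CCD and 18.8, 28.6, 31.9 and 39.4 TPM in sham cTAL at 30 min. At 3 h it had 8.33, 6.53, 6.59 and 7.24 TPM in CCD and 32.5, 38.7, 39.7 and 49.7 TPM in cTAL. No CCD value reached the lowest cTAL value, and the log2 differences were -2.11 (SE 0.16, adjusted p = 6.27e-05) and -2.43 (SE 0.16, adjusted p = 0.000172). Tfap2a, the other AP-2 gene, stayed at or under 1.01 TPM in sham CCD and 0.02 TPM in sham cTAL.

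Tfcp2l1 and Pax8 were present in both segments and higher in CCD at both times. Tfcp2l1 averaged 23.6 ± 4.84 TPM in sham CCD and 8.34 ± 1.43 TPM in sham cTAL at 30 min (SD, n = 4 each), and 5.21 ± 0.44 TPM for CCD and 1.29 ± 0.54 TPM for cTAL at 3 h, with log2 differences of 1.33 (SE 0.14, adjusted p = 0.000284) and 1.46 (SE 0.24, adjusted p = 0.00460). The sham mean of Pax8 at 30 min was 135 ± 35.9 TPM for CCD and 43.6 ± 7.80 TPM for cTAL, and at 3 h it was 144 ± 26.6 TPM for CCD and 48.1 ± 7.49 TPM for cTAL. Its log2 differences, 1.56 (SE 0.10, adjusted p = 3.92e-05) and 1.55 (SE 0.11, adjusted p = 0.000185), were close at the 2 times. Grhl2 was called higher in CCD at 30 min, its sham means being 7.57 ± 0.89 TPM for CCD and 4.15 ± 0.46 TPM for cTAL (log2 difference 0.72, SE 0.16, adjusted p = 0.00692), a call that did not hold under quantile normalization (0.30, adjusted p = 0.0892). At 3 h its groups overlapped and the difference of 0.74 (SE 0.35) was not called (adjusted p = 0.138).

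**Figure D1:**
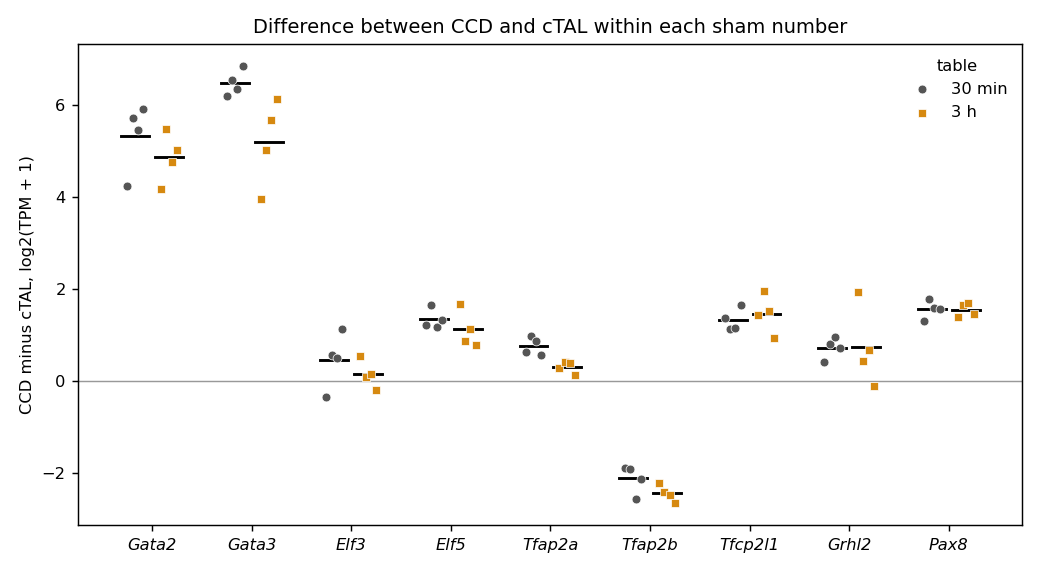
The vertical axis gives the CCD minus cTAL difference of log2(TPM + 1) within each of the 4 sham numbers, for each factor at 30 min (circles) and 3 h (squares); black bars are means of the 4. Gata2 and Gata3 have mean differences of 4.87 to 6.49, Tfap2b lies at -2.11 and -2.43, and Elf3 has means of 0.47 at 30 min and 0.15 at 3 h.

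By level, the factors kept nearly one order within a segment. In sham CCD at 3 h, Pax8 stood first, followed by Elf3, Gata3, Gata2, Tfap2b, Tfcp2l1, Grhl2, Elf5 and Tfap2a, and the ranges of neighbours overlapped only for Grhl2 and Elf5. In sham CCD at 30 min Elf3 stood first and Tfcp2l1 above Grhl2 and Tfap2b, with overlapping ranges from Elf3 down to Tfcp2l1. In sham cTAL the first 3 at both times were Elf3, Pax8 and Tfap2b, of which Pax8 and Tfap2b overlapped.

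**Figure D2:**
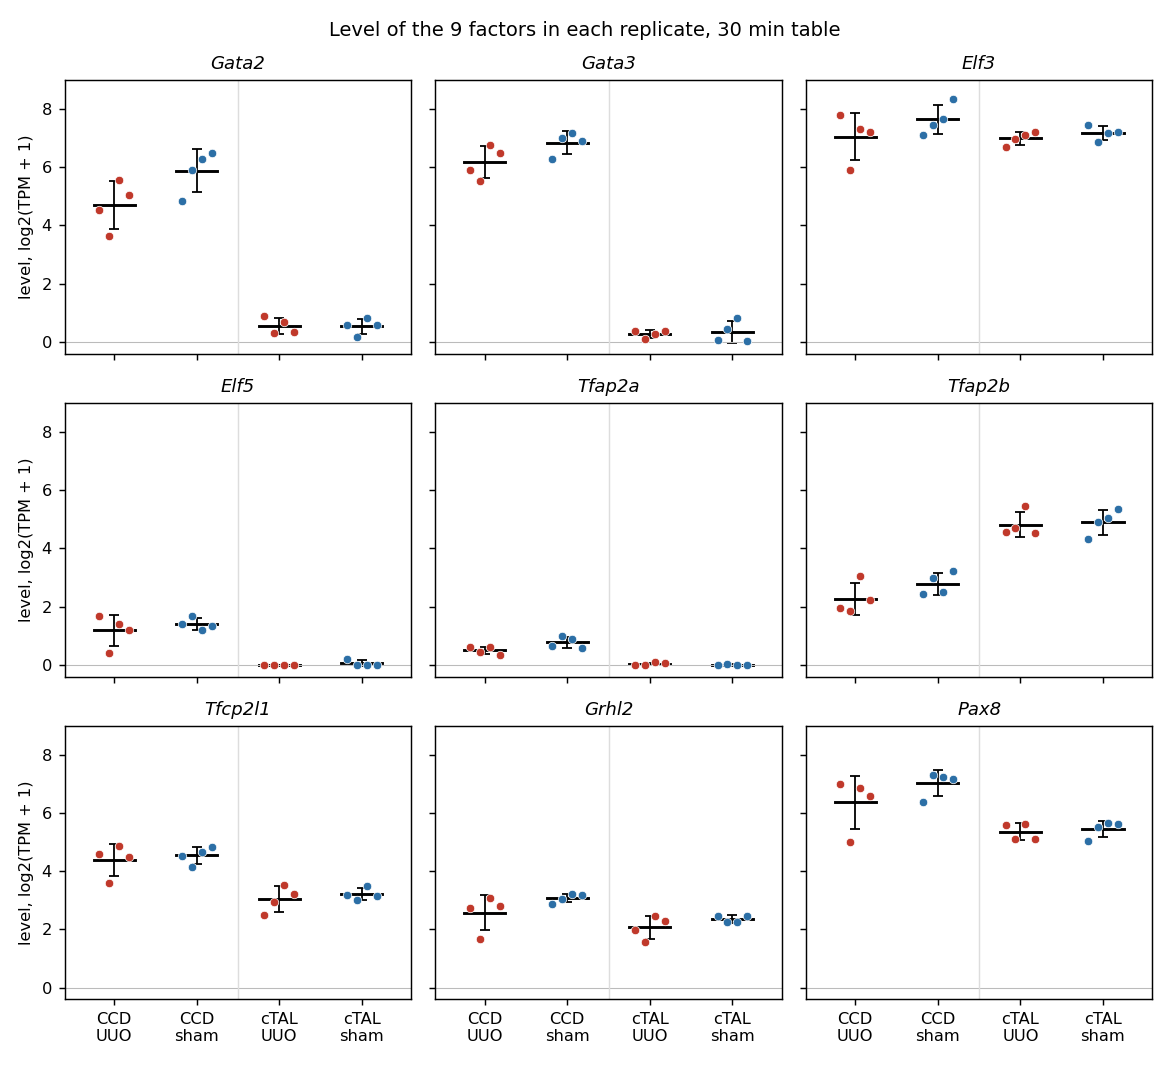
Level of each factor on the log2(TPM + 1) scale in the 30 min table; points are the 4 replicates of UUO (red) and sham (blue) in CCD and cTAL, and bars are means with SD. UUO and sham overlap for all 9 factors in both segments.

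At 30 min of obstruction no factor was called in either segment, and none of those tested had groups that did not overlap. In CCD the background was 0.0264% of 11369 genes called and 8.76% not overlapping, and 2 of the 8 members tested, Gata2 and Gata3, had an unadjusted p under 0.05. In cTAL 5 members were tested, none had an unadjusted p under 0.05, and the background was 0.00910% of 10993 genes called and 1.72% not overlapping. All 8 members tested in CCD had negative log2 changes with a median of -0.55. That has to be read against the CCD libraries as a whole, since the median of all genes tested was -0.31 and median-of-ratios rescaling moved that median to -0.02.

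Gata2 had the largest change of the members in CCD at 30 min, with 22.2, 12.7, 46.6 and 31.7 TPM in UUO and 27.4, 59.5, 76.4 and 89.7 TPM in sham. Sham replicate 1 lay within the UUO values, so the groups overlapped. The log2 change was -1.19 (SE 0.46, limma adjusted p = 0.290, unpaired two-sided exact permutation p = 0.0857). Gata3 had 59.6, 46.8, 106 and 89.8 TPM in UUO and 76.9, 128, 145 and 117 TPM in sham, again with sham replicate 1 lowest, and a log2 change of -0.67 (SE 0.29, adjusted p = 0.309). The labels do not pair UUO with sham rats, but same-numbered CCD samples correlated weakly at this time (0.115 to 0.229). Within the 4 numbers both genes were lower in UUO each time, and the share of all genes that were was not computed. With the number as a block, limma's adjusted p was 0.103 for Gata2 and 0.170 for Gata3, neither of them called.

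Elf3 had 219, 78.9, 159 and 146 TPM in UUO CCD and 138, 172, 202 and 325 TPM in sham CCD at 30 min, a log2 change of -0.59 (SE 0.39, adjusted p = 0.410). The lowest UUO value came from number 2, whose 2 libraries read 132 and 25.3 TPM, the second being the library with the fewest genes. Without that library the change was -0.30 (adjusted p = 0.536). Pax8 (-0.66 with it and -0.40 without) and Grhl2 (-0.50 and -0.29) also moved with it. The log2 change in CCD was -0.51 for Tfap2b, -0.22 for Elf5 and -0.17 for Tfcp2l1, none of them called, and that of Tfcp2l1 was 0.18 under median-of-ratios rescaling. Beside them Aqp2 had 1733, 3024, 4459 and 3002 TPM in UUO CCD and 3494, 5556, 5196 and 5302 TPM in sham CCD, a log2 change of -0.79 (SE 0.29) that was not called (adjusted p = 0.280, or 0.0784 with the number as a block). Aqp2 was lower in UUO at all 4 numbers, as were Grhl2 and, under the filter, Tfap2a. No label pairs UUO with sham rats by number, and the share of all genes lower at all 4 numbers was not computed. The median gene tested there changed by -0.31.

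In cTAL at 30 min the 5 factors tested had log2 changes from -0.28 (Grhl2) to -0.09 (Tfap2b), with a median of -0.16 beside -0.07 for all genes. Elf3 had 101, 125, 135 and 145 TPM in UUO cTAL and 175, 115, 142 and 145 TPM in sham cTAL. Tfap2b averaged 28.0 ± 9.67 TPM in UUO cTAL and 29.7 ± 8.55 TPM in sham cTAL (SD, n = 4 each). Both sets of values overlapped throughout. Aqp2 had 2.37 to 15.4 TPM in UUO cTAL and 0.11 to 1.88 TPM in sham cTAL. These groups did not overlap, but the log2 change of 2.20 (SE 0.48) was not called. The UUO values carried Aqp2 past the filter in this comparison, so a difference was partly built into passing. The CCD minus cTAL difference of the Aqp2 change at 30 min was -2.99 (SE 0.57, limma adjusted p = 0.0596). At 3 h the cTAL groups of Aqp2 overlapped (log2 change 1.52, SE 1.52, adjusted p = 0.559). The part of collecting duct RNA in the cTAL values was not tested.

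At 3 h of obstruction Elf3 rose in both segments and Tfap2b fell in cTAL, and no other factor was called. In CCD 1 of the 8 members tested was called, where 13.0% of 10530 genes were, and 3 of the 8 did not overlap, against 20.9% of all genes tested. In cTAL 2 of the 5 tested were called and the same 2 did not overlap, against 11.7% and 19.8% of 10023 genes. The members' median change was -0.46 in CCD, beside -0.14 for all genes, and -0.26 in cTAL, beside -0.12.

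**Figure D3:**
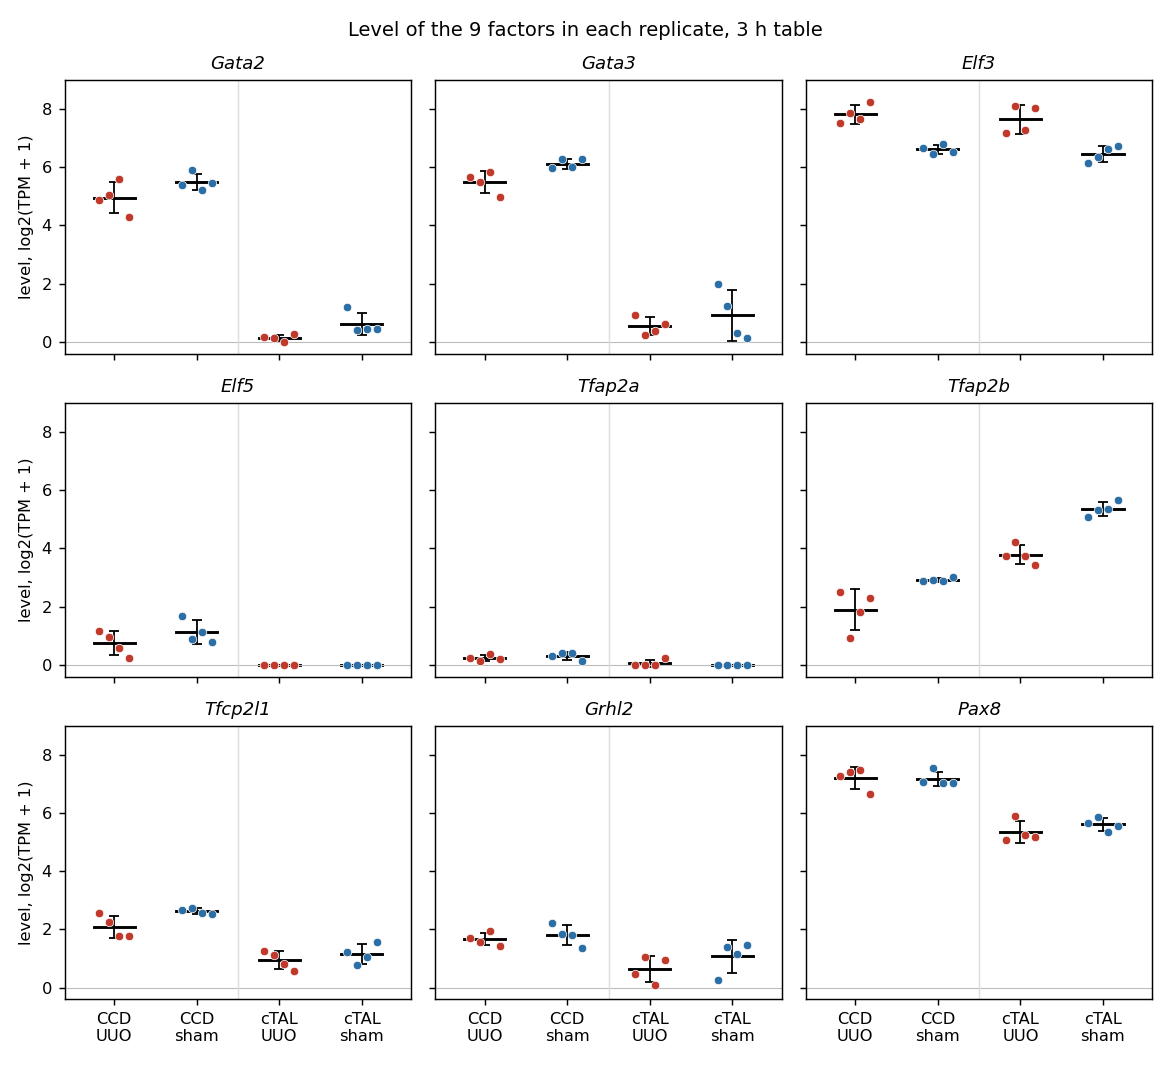
Level of each factor on the log2(TPM + 1) scale in the 3 h table; points are the 4 replicates of UUO (red) and sham (blue) in CCD and cTAL, and bars are means with SD. Elf3 lies higher in UUO than in sham in both segments, and Tfap2b lies lower in UUO than in sham in both, with no overlap.

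Elf3, the epithelial ETS factor, had 181, 231, 204 and 310 TPM in the UUO CCD replicates at 3 h and 106, 87.1, 112 and 91.7 TPM in the sham CCD replicates. The lowest UUO value lay well above the highest sham value, and the log2 change was 1.20 (SE 0.16, limma adjusted p = 0.00457, two-sided exact permutation p = 0.0286, the smallest that 4 against 4 allows). In cTAL Elf3 had 143, 275, 152 and 262 TPM in UUO and 69.0, 81.4, 98.1 and 105 TPM in sham, with a log2 change of 1.18 (SE 0.24, adjusted p = 0.0155). The cTAL groups did not overlap either, and 2 of the UUO replicates, numbers 1 and 3, lay nearer to sham than the other 2. Both calls held when any 1 of the 8 replicates was left out, with log2 changes of 1.06 to 1.31 in CCD and 1.03 to 1.34 in cTAL. The CCD change was 1.33 (adjusted p = 0.0134) without the 3 libraries over 5000 TPM of Umod.

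Markers of other cells differed between the same groups. The summed level of 4 red cell gene identifiers (2 named Hba-a2, 1 Hbb and 1 Alas2) ran from 1494 to 7895 TPM in UUO CCD and from 25.4 to 1187 TPM in sham CCD at 3 h, and from 1834 to 11334 TPM in UUO cTAL and 29.8 to 3161 TPM in sham cTAL. The 7 proximal tubule genes summed to 179 to 976 TPM in UUO CCD and 69.1 to 251 TPM in sham CCD, and all 7 had higher means in UUO. In cTAL the same 7 summed to 210 to 857 TPM in UUO and 6.74 to 178 TPM in sham. The 6 macrophage genes summed to 63.6 to 93.6 TPM in UUO CCD and 19.2 to 53.1 TPM in sham CCD, but to 51.7 to 157 TPM in UUO cTAL and 125 to 310 TPM in sham cTAL, with Cd163 at 0 in all 4 groups. The part of these cells in the Elf3 values was not tested.

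Tfap2b, the AP-2 factor that was high in cTAL, had 12.4, 17.8, 12.4 and 9.66 TPM in UUO cTAL at 3 h and 32.5, 38.7, 39.7 and 49.7 TPM in sham cTAL. Every UUO value lay far below every sham value, and the log2 change was -1.56 (SE 0.23, adjusted p = 0.00393, exact permutation p = 0.0286). With any 1 replicate left out it stayed between -1.72 and -1.44 and was called each time. Over the same replicates the 5 thick limb genes summed to 30497 to 35361 TPM in UUO and 35771 to 61092 TPM in sham, Umod taking most of both sums. Of the 5, Umod (31568 TPM for UUO, 41305 TPM for sham), Cldn10 (1271 TPM for UUO, 1781 TPM for sham), Cldn16 (240.4 TPM for UUO, 250.1 TPM for sham) and Ptger3 (23.1 TPM for UUO, 33.3 TPM for sham) had lower means in UUO cTAL. Slc12a1, the salt cotransporter, had a higher mean there (405 TPM for UUO, 370.1 TPM for sham). The part of these in the Tfap2b values was not tested.

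In CCD Tfap2b had 4.71, 0.96, 2.66 and 4.04 TPM in UUO and 8.33, 6.53, 6.59 and 7.24 TPM in sham at 3 h. The groups did not overlap (exact permutation p = 0.0286), but the log2 change of -1.02 (SE 0.32) was not called (adjusted p = 0.0604). Its value depended on the library, since sham number 1 read 14.2 TPM in the library with 6941 TPM of Umod and 2.49 TPM in the other. Leaving out the 3 libraries over 5000 TPM of Umod gave -0.74 (adjusted p = 0.235), and without UUO replicate 1 the change was -1.23 and was called (adjusted p = 0.0311). The first library of each number alone gave -1.36 (adjusted p = 0.0414). Of the 8 alternatives that kept every replicate, 7 did not call it, with changes up to -0.69 and adjusted p up to 0.400. The part of thick limb RNA in the CCD values of Tfap2b was not tested further.

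**Figure D4:**
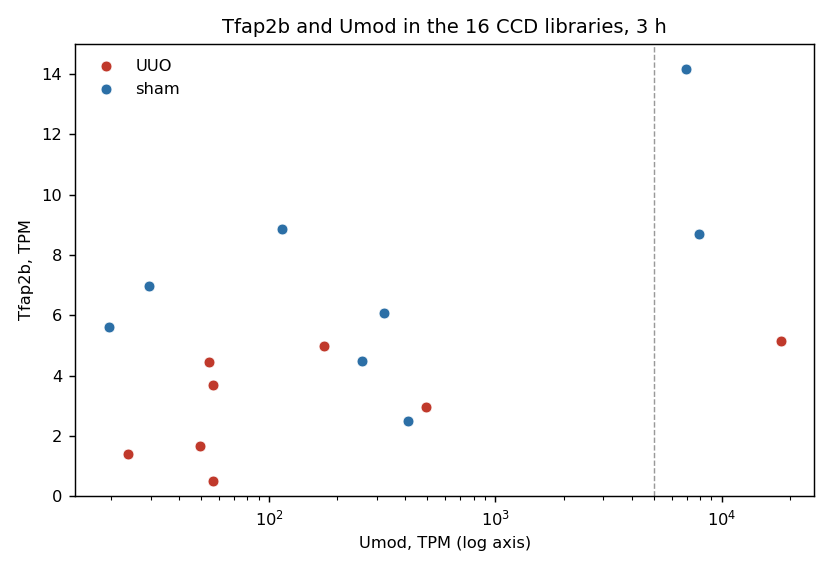
Each point is 1 of the 16 CCD libraries at 3 h, UUO in red and sham in blue, with Umod TPM on a log axis and Tfap2b TPM on a linear axis; the dashed line marks 5000 TPM of Umod. The highest Tfap2b value, 14.2 TPM, belongs to a sham library with 6941 TPM of Umod, and the UUO library with 18235 TPM of Umod has 5.14 TPM of Tfap2b.

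Gata3 had 50.03, 45.0, 56.7 and 31.7 TPM in UUO CCD at 3 h and 61.0, 76.0, 62.9 and 76.2 TPM in sham CCD. Every UUO replicate was lower than every sham replicate (exact permutation p = 0.0286). The log2 change of -0.62 (SE 0.18) missed the threshold (adjusted p = 0.0533) and passed it without the 3 libraries over 5000 TPM of Umod (-0.56, adjusted p = 0.0341) and without UUO replicate 3 (-0.74, adjusted p = 0.0311). It was not called in 7 of the 8 alternatives that kept every replicate (adjusted p up to 0.141). Nor was it called in 7 of the 8 fits with 1 replicate left out. Gata2 had 28.3, 32.5, 47.5 and 19.9 TPM in UUO CCD and 40.6, 58.1, 37.2 and 43.5 TPM in sham CCD, a log2 change of -0.53 (SE 0.26, adjusted p = 0.189). Its groups overlapped through UUO replicate 3. In cTAL both genes stayed under the filter, and Gata2 had 0 to 0.20 TPM in UUO and 0.32 to 1.28 TPM in sham.

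Tfcp2l1, the CP2 factor, had 5.0, 3.76, 2.58 and 2.44 TPM in UUO CCD at 3 h and 5.49, 5.67, 4.95 and 4.73 TPM in sham CCD. UUO replicate 1 fell within the sham values, and the log2 change of -0.53 (SE 0.22) was not called (adjusted p = 0.136). Grhl2 averaged 2.29 ± 0.41 TPM in UUO CCD and 2.63 ± 0.84 TPM in sham CCD (SD, n = 4 each), with a change of -0.15 (SE 0.22, adjusted p = 0.693). Elf5 averaged 0.81 ± 0.49 TPM in UUO CCD and 1.29 ± 0.65 TPM in sham CCD, with a change of -0.39 (SE 0.27, adjusted p = 0.367).

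Pax8, abundant in CCD, had 153, 167, 177 and 106 TPM in UUO CCD at 3 h and 132, 184, 130.3 and 129 TPM in sham CCD, a log2 change of 0.03 (SE 0.19, adjusted p = 0.931). In cTAL, Pax8, Grhl2 and Tfcp2l1 had changes of -0.26, -0.43 and -0.22 with adjusted p of 0.462, 0.454 and 0.655. Tfap2a did not pass 0.32 TPM in any UUO CCD replicate or 0.34 TPM in any sham CCD replicate at 3 h.

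Aqp2 in the same CCD replicates had 4936, 4464, 5808 and 2926 TPM in UUO and 9991, 11318, 9826 and 9681 TPM in sham. Its groups did not overlap and its log2 change was -1.24 (SE 0.19, adjusted p = 0.00782). Among the factors tested in CCD at 3 h, the 7 that were not called had log2 changes from -1.02 to 0.03, and the called Elf3 went in the direction opposite to Aqp2.

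**Figure D5:**
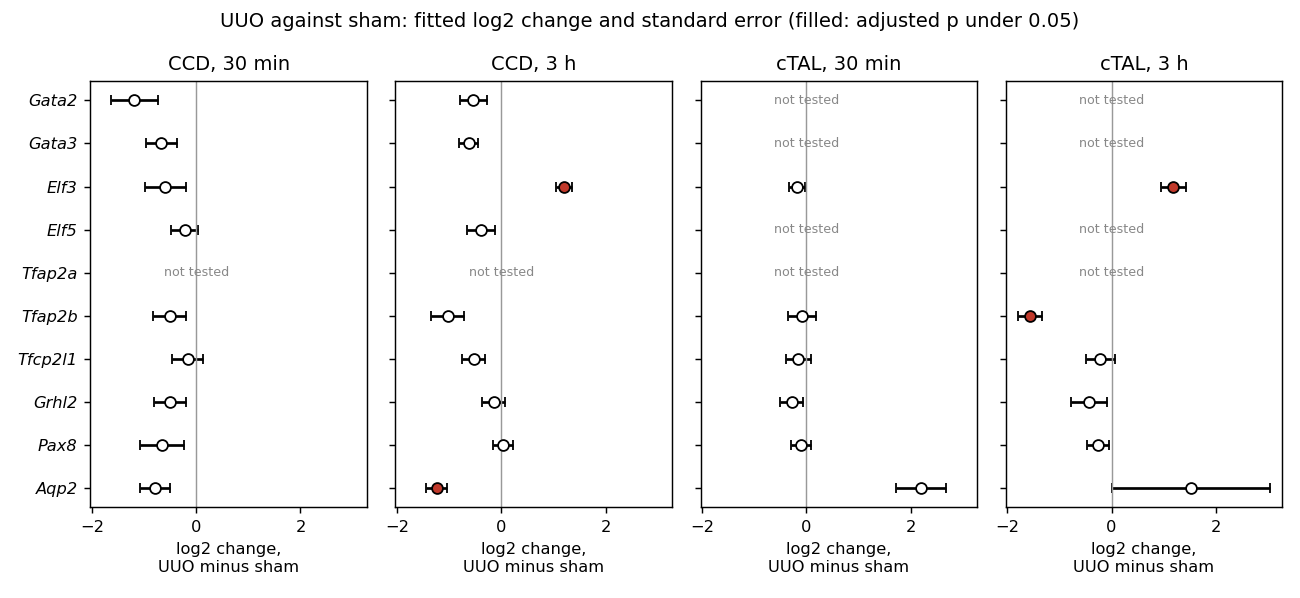
Points are log2 changes (UUO minus sham, log2(TPM + 1) scale) with standard errors from limma, in 4 comparisons, with Aqp2 below the 9 factors; filled points have an adjusted p under 0.05 and factors under the filter are marked as not tested. Elf3 stands at 1.20 in CCD and 1.18 in cTAL at 3 h, Tfap2b at -1.56 in cTAL and Aqp2 at -1.24 in CCD.

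Whether the response differed with time was tested on the difference of the 2 changes, 3 h minus 30 min. In cTAL Elf3 (1.37, SE 0.30, adjusted p = 0.0265) and Tfap2b (-1.48, SE 0.36, adjusted p = 0.0392) were called among 5 tested, where 2.28% of 11765 genes were. These 2 calls were fragile: leaving out 1 replicate ended the Elf3 call in 6 of 16 fits and the Tfap2b call in 11 of 16. In CCD none of 8 was called, where 1.54% of 11959 genes were, and 1 had an unadjusted p under 0.05. That was Elf3, whose difference of 1.80 (SE 0.46) had an adjusted p of 0.0627, and it was called under median-of-ratios rescaling (1.58, adjusted p = 0.0363), under quantile normalization (1.64, adjusted p = 0.0445) and without the 30 min library with the fewest genes (1.503, adjusted p = 0.0264). It was not called in 5 of the 8 alternatives that kept every replicate (adjusted p up to 0.315), or in 14 of 16 fits with a replicate left out. The 2 times also differ in table and animals.

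Whether UUO acted differently in the 2 segments was tested on the CCD change minus the cTAL change. None of the 8 members tested was called at 30 min, where limma called 0% of 12343 genes, or at 3 h, where it called 1.08% of 11515. At 30 min 1 member, Gata2 (-1.20, SE 0.46), had an unadjusted p under 0.05, and at 3 h 0 had. Gata2, Gata3 and Elf5 were under the filter in cTAL and entered this test through their CCD values. At 30 min their differences (-1.20, -0.61 and -0.17) stayed near their CCD changes (-1.19, -0.67 and -0.22). For them the test could not show whether UUO acted differently in the segments. For Elf3 at 3 h the difference was 0.02 (SE 0.20), and for Tfap2b it was 0.54 (SE 0.45), so the larger Tfap2b change in cTAL was not shown to differ from that in CCD.

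Besides the members, 7 lists of 77 genes in all were taken. They held relatives of the factors, lineage factors, other factors described as acting on Aqp2, principal cell genes and epithelial genes tied to Grhl2. Of 11 ETS relatives, 9 were tested in CCD at 3 h, and Ets2 (1.09, SE 0.19, adjusted p = 0.0106) and Ets1 (0.73, SE 0.16, adjusted p = 0.0217), broadly expressed ETS factors, rose beside Elf3. Over all genes tested there, 526 of 10530 rose. Ets2 had 2.65 to 4.06 TPM in UUO CCD and 0.70 to 1.26 TPM in sham CCD, so its UUO values carried it past the filter. Ets1 had 1.17 to 1.595 TPM in UUO CCD and 0.30 to 0.485 TPM in sham CCD, so it passed the filter through UUO alone and a difference was built into passing. None of 6 tested in cTAL was called. Ehf, the close epithelial relative of Elf3, was among the 6 ETS relatives called higher in CCD in sham rats at 30 min (log2 difference 4.64). It was also the 1 called at 3 h (3.14). At 30 min 9 ETS relatives were tested, and 4859 of all 11648 genes tested were higher in CCD. At 3 h 7 were tested, and 2916 of all 10521 genes were higher. In sham cTAL Ehf had 0.90 to 1.49 TPM at 30 min and 0 to 1.59 TPM at 3 h. Its CCD values thus carried it past the filter, and a difference was partly built into passing. At 3 h it had 10.4 ± 1.94 TPM in UUO CCD and 13.4 ± 2.46 TPM in sham CCD. None of the 6 GATA relatives and cofactors passed the filter in any comparison. The list of 9 AP-2, CP2 and grainyhead relatives also held Ovol1 and Ovol2, which are epithelial zinc finger factors and not members of those families. Of the 9, 4 were tested in CCD at 3 h with 0 called. Grhl1 was under the filter there and was not tested, with 0.935 to 4.01 TPM in UUO CCD and 0.095 to 0.485 TPM in sham CCD. Ovol1 was higher in sham CCD than in sham cTAL at both times (2.40 and 2.96).

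Among the lineage factors, Hoxb7 (-0.91, SE 0.10, adjusted p = 0.00218), which is tied to the ureteric bud and its duct derivatives, fell in CCD at 3 h, and 0 of 6 tested was called in cTAL. In sham rats at 30 min, Foxi1, the intercalated cell factor, had 301 to 415 TPM in CCD and 0 to 0.32 TPM in cTAL, and Lhx1 had 13.5 to 23.4 TPM in CCD and 0 to 0.67 TPM in cTAL. Both passed the filter through CCD alone, so that a difference was built into passing. Of 19 other factors described as acting on Aqp2, 15 were tested in CCD at 3 h and only Nr3c2, the mineralocorticoid receptor, was called (-1.62, SE 0.23, adjusted p = 0.00622). In cTAL 3 of 14 rose, where 407 of all 10023 genes tested did. They were Fos (4.55, SE 0.70), Jun (2.57, SE 0.41) and Crem (1.55, SE 0.30). The change of Fos and that of Jun differed between the segments at 3 h, by -4.01 (adjusted p = 0.0475) and -2.75 (adjusted p = 0.0189). In sham rats 12 of 16 tested were higher in CCD at 30 min and 2 lower, where 4859 of all 11648 genes tested were higher and 1541 lower, the bile acid receptor gene Nr1h4 being lower at both times (-4.50 and -4.09).

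Principal cell genes and epithelial genes tied to Grhl2 were taken beside the factors. Whether the factors act on them was not tested. Of 11 principal cell genes, 7 fell in CCD at 3 h and 0 rose, where 847 of all 10530 genes tested fell and 526 rose, those with the smallest p being Avpr2, the vasopressin receptor (-1.76, SE 0.27), Aqp2, Kcnj1 (-1.64, SE 0.28) and Aqp3 (-0.78, SE 0.20), with a list median of -0.78 beside -0.14 for all genes. In cTAL 9 of them were tested, of which Avpr2 (-1.51, SE 0.16) and Kcnj1 (-1.01, SE 0.12) fell and Scnn1a, a sodium channel subunit gene (1.35, SE 0.38), rose. Of 8 epithelial genes tied to Grhl2, the tight junction genes Cldn3 (1.304, SE 0.18, adjusted p = 0.00612) and Cldn4 (2.34, SE 0.34, adjusted p = 0.00658) rose in CCD at 3 h, and Cldn3 (1.47, SE 0.23) and Esrp2 (1.18, SE 0.33) rose and Spint1 (-0.90, SE 0.16) fell in cTAL. Over all 10023 genes tested in cTAL at 3 h, 407 rose and 766 fell. None of the genes on the 7 lists was called at 30 min in either segment.

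Likeness between genes was measured as the root mean square difference of log2(TPM + 1), centred per gene within each table, over 32 segment replicates and among 9448 genes that averaged 5 TPM or more in some group. Nearest to Elf3 were Arid5b (0.34) and Rell1 (0.36), and nearest to Tfap2b were Rpa1 (0.41) and Sept4 (0.49). Gata2 lay nearest to Prr35 (0.30) and Dmrt2 (0.36), and Gata3 to Dnaaf1 (0.43) and Atp6v1c2 (0.44). Tfcp2l1 was closest to Tpra1 and Tmem50b (both 0.28), Grhl2 to B4galt3 (0.21) and Rufy1 (0.23), and Pax8 to Pisd (0.23) and Ctbp2 (0.29). Elf5 and Tfap2a were under 5 TPM in every group and were not placed.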

How the data were processed

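Bulk RNA of microdissected rat CCD and cTAL was amplified with a SMARTer Ultra Low kit and made into Nextera XT libraries, per the labels' protocols, a route that does not mark strand, so reads of overlapping antisense genes cannot be told apart. The deposited tables hold TPM per library as the authors computed them, and the submitters' processing notes name STAR 2.7.3, RSEM 1.3.3 and build Rnor_6.0. TPM keep no read number, so the depth behind each value is unknown. The 8 whole-kidney samples were not analysed here.

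TPM were tested as log2(TPM + 1), after averaging the 2 libraries of a CCD number on that scale, with limma 3.58.1 (trend) in R 4.3.3, with version 1.17.8 of the data.table package. Genes had to reach 1 TPM in at least 4 replicates. Fold changes on this scale understate those of low genes. Single members were also compared with two-sided exact permutation tests. All 9 members and Aqp2 are named, and of each list up to 4 called genes, smallest p first. A result of the lineage list is not reported here. Members and lists were chosen with earlier results of these data known. Motif letters were searched on both strands with Python 3.11.15, and figures drawn with matplotlib 3.10.9. The fits were tested on simulated data.

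The same number, arm and time was taken as one rat, which the labels do not state. The deviations of CCD and cTAL with the same number correlated at 0.0608 to 0.541. UUO and sham are different rats, and no label pairs them. Same-numbered CCD replicates at 30 min correlated at 0.115 to 0.229, though number 3 was matched best by another number. In cTAL at 30 min the correlations ran from -0.233 to 0.179, so a pairing of UUO with sham by number is uncertain. At 3 h both signs occurred in each segment. P-values measure the spread between these numbered samples. Alternatives were another pseudocount (0.1), 2 rescalings, no filter, the pairing, single CCD libraries, libraries over 5000 TPM of Umod or with the fewest genes left out, and each replicate left out.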

Additional observations from a re-analysis of the deposited data

Results flagged for a closer look

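In 6 of the 68 groups of 4 replicates examined, 1 sample stood apart, since its gap to the nearest other replicate, divided by the group's range, was above Dixon's 95% critical value. Chance gives this in about 1 group in 20, and 4 further groups were at 0 throughout. Pax8 had 81.4 TPM in sham CCD replicate 1 at 30 min, against 144 to 158 TPM in the other 3. Pax8 also had 184 TPM in sham CCD replicate 2 at 3 h, against 129 to 132 TPM in the others. Gata2 had 1.28 TPM in sham cTAL replicate 1 at 3 h, against 0.32 to 0.37 TPM in the others, and that library had 361 TPM of Aqp2. The other 3 were near the floor. Tfap2a had 0.18 TPM in UUO cTAL replicate 4 at 3 h and 0.02 TPM in sham cTAL replicate 2 at 30 min, and Elf5 had 0.15 TPM in sham cTAL replicate 1 at 30 min, with the other replicates of each group listed at 0.

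In cTAL the UUO change of 2 factors differed between the times, by 1.37 for Elf3 and -1.48 for Tfap2b (3 h minus 30 min, log2 scale, limma adjusted p = 0.0265 and 0.0392). Leaving out 1 replicate ended the Elf3 call in 6 of 16 fits and the Tfap2b call in 11 of 16. Neither was called with no filter, and the 2 times also differ in table and animals.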

How the results depend on the processing

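The depth behind the TPM is unknown, and members near 1 TPM (Elf5, Tfap2a, and in cTAL Gata2, Gata3 and at 3 h Grhl2 and Tfcp2l1) are the least certain. With 4 samples a group, a p that misses the threshold does not show that values did not differ. The Elf3 and Tfap2b calls at 3 h held under every alternative run for their cTAL comparison, and that of Elf3 under every one run in CCD. The cause of the changes below was not tested.

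The count of members called in CCD at 3 h was 2 with library 1 alone and without the libraries rich in Umod, and 1 to 2 with a replicate left out. The time difference in CCD called 1 under median-of-ratios rescaling, under quantile normalization and without the 30 min library with the fewest genes, and 0 to 1 with a replicate left out. In cTAL it called 0 with no filter and 0 to 2 with a replicate left out. With the replicate block, 0 members were called in CCD at 30 min, 1 in CCD at 3 h, 0 in cTAL at 30 min and 2 in cTAL at 3 h, and calls over all genes numbered 770 in CCD at 3 h (1373 without it) and 580 in cTAL at 3 h (1173 without it). With no replicate block, the sham segments gave 7 and 5 and the segment differences 0 and 0. The block changed no member's call.

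Values that changed sign were all of genes not called in that comparison. In CCD at 30 min, Tfcp2l1 was 0.18 under median-of-ratios rescaling, 0.24 under quantile normalization, 0.23 with library 1 alone and 0.019 without the library with the fewest genes, and Elf5 was 0.022 under quantile normalization. Pax8 in CCD at 3 h was -0.059 with library 2 alone, Tfap2b in cTAL at 30 min 0.0016 under median-of-ratios rescaling, and Elf3 between sham segments at 3 h -0.17 and -0.12 under the 2 rescalings. For the segment difference at 30 min, Tfcp2l1 was 0.0017 with the pseudocount of 0.1, 0.27 under median-of-ratios rescaling, 0.35 under quantile normalization, 0.39 with library 1 alone and 0.18 without the library with the fewest genes. Elf5 was 0.042 and Grhl2 0.17 under quantile normalization, and 0.028 and 0.10 with library 1 alone. For the segment difference at 3 h, Gata2 was 1.07 with the pseudocount of 0.1, 0.097 and 0.084 under the rescalings, 0.031 with library 1 alone and 0.12 without the libraries rich in Umod. For the time difference in CCD, Gata3 was -0.17 and -0.088 under the rescalings and -0.042 without the library with the fewest genes, Grhl2 was -0.033 under quantile normalization and -0.081 with library 1 alone, and Tfcp2l1 was 0.22 with library 2 alone.

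With a replicate left out, the ranges that crossed 0 were, in CCD at 30 min, -0.38 to 0.031 for Elf5 and -0.33 to 0.099 for Tfcp2l1. Pax8 in CCD at 3 h ran from -0.060 to 0.22. In cTAL at 30 min Tfap2b ran from -0.30 to 0.062 and Tfcp2l1 from -0.32 to 0.026. The segment difference at 30 min ran from -0.33 to 0.082 for Elf5 and -0.26 to 0.22 for Tfcp2l1, and at 3 h from -0.096 to 0.16 for Elf3, -0.32 to 0.20 for Gata2, -0.65 to 0.072 for Gata3 and -7.8e-06 to 0.68 for Grhl2. The time difference ran in CCD from -0.42 to 0.021 for Elf5 and -0.16 to 0.24 for Gata3, and in cTAL from -0.25 to 0.10 for Tfcp2l1, -0.41 to 0.034 for Grhl2 and -1.53 to 1.16 for Aqp2.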
